A study of Homo sapiens with 6 samples.

Results

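Potassium channel genes were examined in IKPRAB-36 cells cultured with and without a progestin. The genes taken were all those whose single annotated symbol starts with KCN, which gave 97 genes of the 19775 genes with a symbol on the arrays. These 97 genes were read by 184 probe sets, and for each gene the brightest probe set was taken, the one with the highest mean signal over the 6 arrays. For 48 genes there was 1 probe set and for 49 genes there were several. Another 5 probe sets carried a KCN symbol together with a second symbol (GALNT8 with KCNA6, KCNJ18 with KCNJ12 on 3 probe sets, and KCNRG with TRIM13) and were left out of the counts.

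IKPRAB-36 is a stably transfected line of Ishikawa cells, an established human endometrial cancer cell line, in which both forms of the progesterone receptor, PRA and PRB, are expressed from introduced constructs. The MPA group, 3 arrays, had received 1 nM medroxyprogesterone acetate (MPA), a synthetic progestin, for 48 h, and the control group was 3 arrays of the same line cultured for 48 h without it. Both groups were kept in charcoal-stripped serum, which removes most steroid hormones, with neomycin and hygromycin to hold the constructs. The study compared the groups to describe gene regulation by progestin in endometrial cancer cells, and the line stands for 1 transfected clone. Signals are RMA values on the log2 scale, so a difference of 1 is a doubling, and errors are SD over 3 arrays. Since the labels do not say whether the arrays of a group came from separate cultures, the p-values cover the spread of these arrays alone, and that spread may be technical.

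Potassium channels let potassium ions leave or enter the cell along their gradient and thereby set the membrane potential, cell volume and the drive for other ions across epithelia. Most are built from pore-forming subunits, of which voltage-gated, calcium-activated, inwardly rectifying and two-pore-domain types are distinguished, while silent and auxiliary subunits form no channel by themselves and alter the gating or the surface level of the channel they join. In the uterus, potassium channels are best known for holding the smooth muscle of the myometrium at rest, and in epithelium for supporting fluid and chloride secretion.

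Beside the KCN genes, epithelial markers were well above the array medians, which lay between 5.16 and 5.28. The list of 11 epithelial markers (such as KRT8, KRT18 and EPCAM) included PGR, which this line expresses from introduced constructs. The mean signal of the list was 9.40 to 9.74 on MPA arrays and 9.51 to 9.72 on control arrays. Of the 11 markers 10 were above the median on all arrays. Of 4 leukocyte markers 2 were above it on all arrays (list mean 4.75 to 5.07 on MPA arrays, 4.83 to 4.92 on control arrays), of 5 endothelial markers 1 was (4.40 to 4.65 and 4.50 to 4.57), of 7 fibroblast markers 4 were (5.81 to 6.01 and 5.91 to 6.17), of 5 neuronal markers 4 were (5.90 to 5.99 and 5.71 to 5.93), and of 5 muscle markers 3 were (5.20 to 5.46 and 5.30 to 5.31). None of these markers was called between the groups, but some had arrays that did not overlap. Of the 11 epithelial markers 2 were so higher and 3 lower with MPA, beside 8.96% and 7.98% of all genes. The higher ones were PGR and KRT8 (log2 fold changes 0.48 and 0.22, limma adjusted p = 0.294 and 0.682). The lower ones were CDH1, EPCAM and PAX8 (log2 fold changes -0.76, -0.54 and -0.44, limma adjusted p = 0.128, 0.0586 and 0.0762). Of the 7 fibroblast markers COL1A1 and COL3A1 were lower in that way (-0.81 and -0.53, limma adjusted p = 0.168 and 0.0918). The part of these markers in the results was not tested. The poly-A control probe sets averaged 8.17, 7.50 and 6.19 on MPA arrays 1 to 3, against 8.23, 7.84 and 7.58 on the control arrays, so that MPA 3 stood apart as the lowest. Within a group the arrays correlated at 0.987 or more over all probe sets.

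With MPA, 4 potassium channel genes rose and 3 fell. KCNG1, a silent voltage-gated subunit, was 11.9-fold higher in MPA-treated cells by its brightest probe set, a choice that rested on the MPA arrays. KCNJ4 (an inward rectifier) was 3.35-fold higher, KCNMA1 (the pore of the large-conductance calcium-activated channel) 3.06-fold and KCNJ16 (an inward rectifier) 1.40-fold. KCNE3, KCNJ8 and KCNIP1, an auxiliary subunit, an inward rectifier and a calcium-binding auxiliary subunit, were 2.23-fold, 2.17-fold and 1.88-fold higher in control cells. A call required an adjusted p under 0.05 in limma (Benjamini-Hochberg over 54613 probe sets) and the fold minimum of the study's methods. The 7 called genes were 7.22% of the 97, beside 2.9% of all 19775 genes. Those that rose were 4 of 97, beside 1.74% of all genes called higher, and those that fell were 3 of 97, beside 1.16% called lower. Counted by probe set, 11 of 184 KCN probe sets were called (5.98%, beside 2.03% of all probe sets), 5 of them higher (beside 1.21%) and 6 lower (beside 0.813%), and all 11 belonged to the 7 called genes. The median log2 fold change of the 97 genes was 0.03, beside 0.02 for all genes. In RNA from a whole culture, fewer cells that express a gene and less RNA per cell cannot be told apart.

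**Figure D1:**
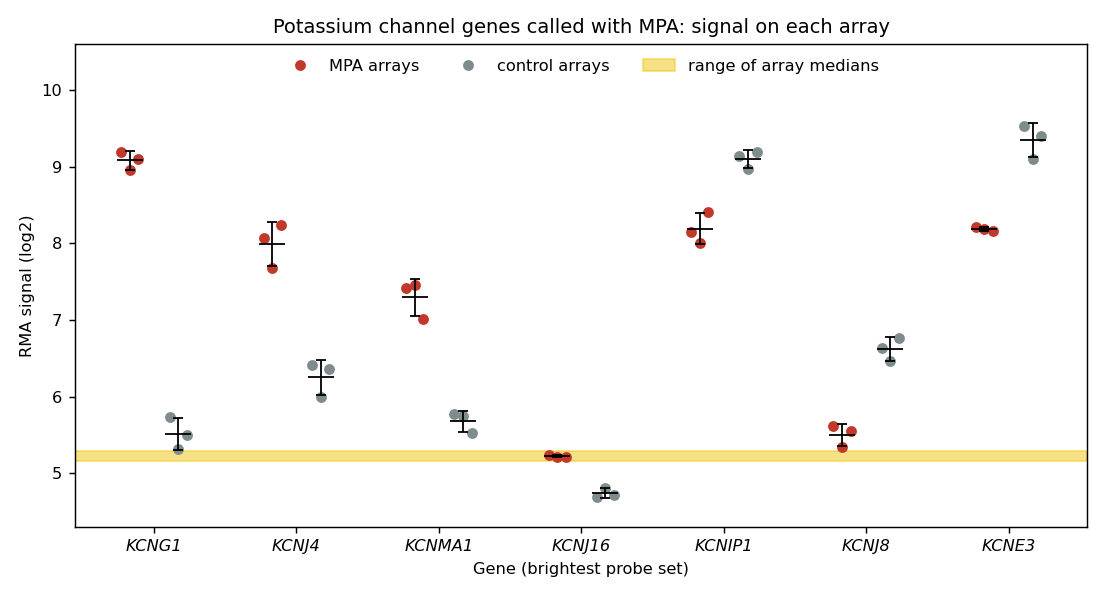
RMA signal (log2, vertical axis) of the 7 called KCN genes on each array, MPA arrays to the left of control arrays for each gene. Points are arrays, black bars the mean ± SD (n = 3), and the shaded band the range of the 6 array medians; the groups do not overlap for any of the 7, and KCNG1 shows the widest gap between them (3.22).

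The subunit with the largest change was KCNG1, which cannot conduct on its own and is known to assemble with subunits of the KCNB (Kv2) family. Its signal was 9.19, 8.95 and 9.10 on MPA arrays 1 to 3, against 5.73, 5.31 and 5.50 on control arrays 1 to 3. The lowest MPA array thus lay 3.22 above the highest control array. Means were 9.08 ± 0.12 with MPA and 5.51 ± 0.21 in control (SD, n = 3 each), and the log2 fold change was 3.57 (SE 0.13, 95% interval 3.26 to 3.87, limma adjusted p = 1.05e-05). By this probe set it was the 11th largest increase among the 19775 genes, each read by its brightest probe set. Its other probe set read 6.36, 5.95 and 5.999 on MPA arrays and 5.74, 5.61 and 5.57 on control arrays. These groups did not overlap either, but the log2 fold change of 0.47 (SE 0.13) was far smaller and did not pass the test (limma adjusted p = 0.192). On every control array this other probe set was slightly the brighter of the pair. The probe set with the large change thus counted as brightest only through its MPA values, so its fold change was not chosen independently of the groups. Averaged over both probe sets, the log2 fold change of KCNG1 was 2.02, and it still passed.

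KCNB2, a pore-forming subunit of the family with which KCNG1 assembles, had both group means under the array medians and was not called, with a log2 fold change of 0.18 (limma adjusted p = 0.914). It read 4.55, 4.48 and 5.39 on MPA arrays and 4.73, 4.27 and 4.86 on control arrays, so that only MPA 3 was above its median. In what follows, a gene counts as above the array medians where the mean of at least 1 group exceeded the highest of them, 5.28, and as dim where neither did. KCNS3, another silent subunit of the same kind, read 8.19, 8.08 and 8.11 on MPA arrays and 8.25, 8.09 and 8.36 on control arrays, with overlapping groups. Its log2 fold change was -0.11 with an interval of -0.36 to 0.15 (limma adjusted p = 0.873). Of the 10 silent subunits, KCNG1 alone was called (10%, beside 2.9% of all genes). The others above the array medians were KCNF1 and KCNS1 beside KCNS3, and the remaining 6 (KCNG2, KCNG3, KCNG4, KCNS2, KCNV1 and KCNV2) were dim, although KCNG2 exceeded the array's own median on 2 arrays, MPA 3 and control 1. The second largest change of this class was that of KCNG4, at 0.18 (limma adjusted p = 0.682).

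Inward rectifiers are channels that pass potassium more easily into than out of the cell. In this class 3 of 13 genes were called (23.1%, beside 2.9% of all genes). KCNJ4 encodes a strong rectifier of the Kir2 family, which holds the membrane near the potassium equilibrium in heart and brain. It read 8.06, 7.68 and 8.24 on MPA arrays, against 6.41, 5.99 and 6.36 on control arrays. Every MPA array was thus at least 1.28 above every control array. Means were 7.996 ± 0.287 with MPA and 6.253 ± 0.227 in control (SD, n = 3 each), a log2 fold change of 1.74 (SE 0.17, interval 1.35 to 2.14, limma adjusted p = 0.00144). The second probe set of KCNJ4 read 5.24, 5.35 and 6.08 on MPA arrays and 4.90, 4.71 and 5.04 on control arrays, a difference in the same direction that did not pass the test (log2 fold change 0.68, limma adjusted p = 0.252). KCNJ2, the best known member of the Kir2 family, was below the array medians whether MPA was given or not, with a log2 fold change of 0.21 (limma adjusted p = 0.587).

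KCNJ16 forms no current by itself in most cells and joins KCNJ10 or KCNJ15 into channels that sense pH in the kidney. It read 5.24, 5.21 and 5.22 on MPA arrays, against 4.69, 4.81 and 4.71 on control arrays. The groups did not overlap, but the signal was close to or under the array medians throughout, at 5.22 ± 0.01 with MPA and 4.74 ± 0.06 in control (SD, n = 3 each). The log2 fold change of 0.48 (SE 0.10, interval 0.26 to 0.70) passed the test narrowly (limma adjusted p = 0.0454), and it no longer passed once any array was removed (adjusted p from 0.0676 to 0.252). A second probe set did not show the difference (log2 fold change 0.02, limma adjusted p = 0.987). Both partners of KCNJ16 were measured. KCNJ10 read 4.63, 4.004 and 4.49 on MPA arrays and 4.50, 4.35 and 4.40 on control arrays, overlapping and under the medians. KCNJ15 was above the array medians, at means of 6.24 with MPA and 6.05 in control, with a log2 fold change of 0.19 (limma adjusted p = 0.723).

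KCNJ8 encodes the pore of a channel that is closed by ATP and thereby couples metabolism to the membrane potential, best known in vascular smooth muscle. Its signal fell to 5.61, 5.34 and 5.54 on MPA arrays, against 6.64, 6.46 and 6.76 on control arrays. Each MPA array was lower than every control array, by at least 0.85. Means were 5.50 ± 0.14 with MPA and 6.62 ± 0.15 in control (SD, n = 3 each), a log2 fold change of -1.12 (SE 0.12, interval -1.40 to -0.84, limma adjusted p = 0.00245). The other probe set of KCNJ8 was called as well, with 4.62, 4.50 and 4.84 on MPA arrays against 6.20, 5.83 and 6.34 on control arrays (log2 fold change -1.47, limma adjusted p = 0.00202). ABCC9, the sulfonylurea receptor with which KCNJ8 forms its channel, averaged 3.27 ± 0.08 with MPA and 3.29 ± 0.22 in control (SD, n = 3 each), under the array medians. ABCC8, another accessory subunit gene, was above them, at 5.68 ± 0.59 with MPA and 5.46 ± 0.08 in control, and was not called (limma adjusted p = 0.889). The other 10 inward rectifiers were not called. KCNJ5, a channel opened by G proteins, read 6.56, 6.22 and 6.62 on MPA arrays and 6.98, 6.46 and 6.84 on control arrays, with a log2 fold change of -0.29 and an interval of -0.67 to 0.09 (limma adjusted p = 0.657).

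KCNMA1 encodes the pore of the large-conductance channel that opens on both calcium and depolarisation and relaxes the smooth muscle of the uterus and of vessels. It read 7.41, 7.46 and 7.01 on MPA arrays, against 5.77, 5.74 and 5.52 on control arrays. No MPA array came within 1.24 of a control array, although MPA 3 was lower than the other MPA arrays. Means were 7.29 ± 0.25 with MPA and 5.68 ± 0.14 in control (SD, n = 3 each), a log2 fold change of 1.62 (SE 0.15, interval 1.28 to 1.95, limma adjusted p = 0.000854). A second probe set, under the array medians, was called too, with 4.71, 4.88 and 4.71 on MPA arrays against 3.67, 3.77 and 3.84 on control arrays (log2 fold change 1.01, limma adjusted p = 0.00205). The dimmest pair of probe sets, at means of 3.81 and 3.18 with MPA and 3.46 and 3.12 in control, gave 0.35 and 0.06 and were not called (limma adjusted p = 0.554 and 0.938). Averaged over all its probe sets, the log2 fold change of KCNMA1 was 0.76, and it still passed.

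The beta subunits that tune this channel did not pass the test. KCNMB4, which slows its opening, read 8.62, 8.59 and 8.93 on MPA arrays and 8.62, 8.39 and 8.62 on control arrays, with a log2 fold change of 0.17 and an interval of -0.13 to 0.47 (limma adjusted p = 0.790). KCNMB1, the smooth muscle subunit that raises calcium sensitivity, was under the array medians, at 4.47, 4.52 and 4.79 on MPA arrays and 4.21, 4.27 and 4.36 on control arrays. Those groups did not overlap, but the log2 fold change of 0.31 (interval 0.04 to 0.58) had a limma adjusted p of 0.387. An antisense transcript of the locus, KCNMA1-AS1, was above the array medians, with a log2 fold change of 0.00 (limma adjusted p = 0.998). Of the other 6 calcium- or sodium-activated channel genes, KCNN1, a small-conductance channel, was above the medians, with a log2 fold change of 0.06 (limma adjusted p = 0.938). KCNN3, KCNN4, KCNT1, KCNT2 and KCNU1 were dim and not called, KCNT1 exceeding the array's own median on 2 arrays (MPA 1 and MPA 3) and KCNT2 showing a log2 fold change of -0.11 (limma adjusted p = 0.962).

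Among the 16 auxiliary subunit genes, 2 fell (12.5%, beside 1.16% of all genes called lower) and none was called higher. KCNE3 is a single-span subunit that keeps the KCNQ1 channel open and supports chloride secretion in colon and airway epithelium. Its signal was 8.21, 8.19 and 8.16 on MPA arrays, against 9.53, 9.10 and 9.40 on control arrays. The MPA arrays were tightly grouped, and every one was lower than every control array, by at least 0.89. Means were 8.19 ± 0.03 with MPA and 9.35 ± 0.22 in control (SD, n = 3 each), a log2 fold change of -1.16 (SE 0.13, interval -1.45 to -0.87, limma adjusted p = 0.00245). The gene had 3 probe sets and all 3 were called lower. The next brightest gave a log2 fold change of -0.61 (limma adjusted p = 0.0201), and the dimmest read 5.42, 6.07 and 5.64 on MPA arrays against 6.75, 6.46 and 6.93 on control arrays (limma adjusted p = 0.0345). KCNQ1, the pore with which KCNE3 assembles, read 7.10, 6.72 and 7.32 on MPA arrays and 7.06, 6.53 and 7.05 on control arrays. The groups overlapped, and the log2 fold change of 0.17 had an interval of -0.28 to 0.61 (limma adjusted p = 0.889).

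KCNIP1 encodes a calcium-binding protein that escorts the KCND (Kv4) channels to the membrane and is best known in neurons. It read 8.15, 8.01 and 8.41 on MPA arrays, against 9.14, 8.96 and 9.19 on control arrays, so that every MPA array was at least 0.55 lower than every control array. Means were 8.19 ± 0.20 with MPA and 9.10 ± 0.12 in control (SD, n = 3 each), a log2 fold change of -0.91 (SE 0.13, interval -1.21 to -0.61, limma adjusted p = 0.0104). It had 1 probe set, and the call was lost without MPA 1, control 1 or control 3 (adjusted p = 0.0690, 0.0612 and 0.0758). The pore-forming partners KCND2 and KCND3 stayed under the medians of the arrays, with log2 fold changes of -0.06 and 0.09 (limma adjusted p = 0.951 and 0.911). KCND1, dim by its group means, read 5.14, 4.99 and 5.48 on MPA arrays, against 4.79, 4.74 and 4.81 on control arrays. Its groups did not overlap, and its log2 fold change of 0.42 (interval 0.11 to 0.74) did not pass the test over all probe sets (limma adjusted p = 0.272). The other auxiliary genes with a mean above all array medians in a group were KCNAB2, KCNE2, KCNIP2, KCNIP3 and KCNMB3 beside KCNMB4, none of them called.

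**Figure D2:**
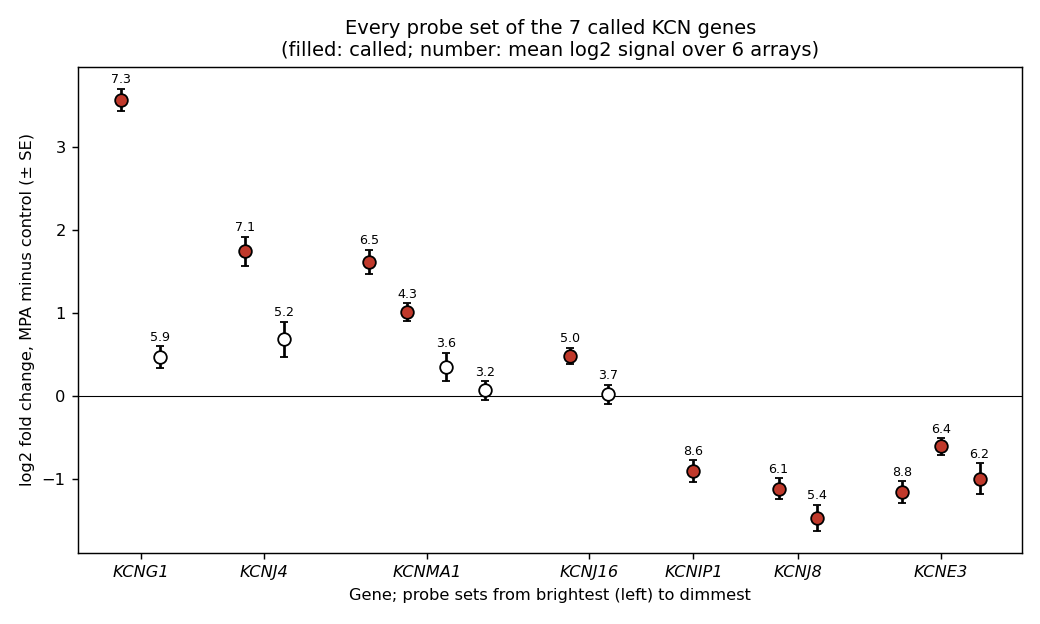
Log2 fold change, MPA minus control, of each of the 16 probe sets of the 7 called genes (vertical axis, ± SE), ordered by signal within a gene; filled points were called and the number above a point is its mean log2 signal over the 6 arrays. For KCNE3 and KCNJ8 every probe set was called. The dimmer probe sets gave smaller changes for KCNG1, KCNJ4, KCNMA1, KCNJ16 and KCNE3, and a larger fall for KCNJ8.

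Of the 7 called genes 6 were matched to RefSeq promoters. KCNG1, the gene with the largest change, had no match. The promoters of 4, the higher and the lower pairs with the smallest adjusted p among the matched genes, are given to show how they differ in base composition. The sequences are the 250 bases before the gene start in RefSeq (GRCh38.p14), on the strand of the gene, 5′ to 3′, with each CG dinucleotide in capitals. KCNJ4 (chr22:38444029-38444278, minus strand) and KCNMA1 (chr10:77637809-77638058, minus strand) were higher with MPA, and KCNJ8 (chr12:21774707-21774956, minus strand) and KCNE3 (chr11:74467550-74467799, minus strand) were lower.
KCNJ4: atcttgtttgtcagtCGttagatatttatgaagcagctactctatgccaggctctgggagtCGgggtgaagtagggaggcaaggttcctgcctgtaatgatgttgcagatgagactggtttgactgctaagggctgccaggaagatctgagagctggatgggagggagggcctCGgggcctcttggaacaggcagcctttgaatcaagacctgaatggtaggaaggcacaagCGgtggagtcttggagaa
KCNMA1: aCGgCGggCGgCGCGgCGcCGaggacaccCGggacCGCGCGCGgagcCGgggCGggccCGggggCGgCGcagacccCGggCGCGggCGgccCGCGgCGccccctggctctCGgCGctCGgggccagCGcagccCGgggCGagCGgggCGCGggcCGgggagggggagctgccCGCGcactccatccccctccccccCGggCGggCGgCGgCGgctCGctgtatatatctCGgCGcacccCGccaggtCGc
KCNJ8: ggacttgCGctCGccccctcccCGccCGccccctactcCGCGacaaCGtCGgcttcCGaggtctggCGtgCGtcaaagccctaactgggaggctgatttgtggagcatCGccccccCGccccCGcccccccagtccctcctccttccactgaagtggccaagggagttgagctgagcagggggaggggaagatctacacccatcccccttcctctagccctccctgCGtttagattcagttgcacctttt
KCNE3: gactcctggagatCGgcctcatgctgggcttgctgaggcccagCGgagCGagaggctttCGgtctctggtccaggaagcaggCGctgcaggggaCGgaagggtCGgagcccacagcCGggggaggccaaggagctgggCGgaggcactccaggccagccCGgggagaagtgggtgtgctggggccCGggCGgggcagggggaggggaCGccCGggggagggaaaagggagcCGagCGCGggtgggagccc

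Of these, KCNMA1 had 85.6% G or C and 46 CG dinucleotides, and KCNJ4 had 52.4% and 4. KCNJ8 had 64.8% and 15, and KCNE3 had 73.2% and 17. Over 35116 RefSeq promoter windows of this length the median was 58% with 11 CG dinucleotides (quartiles 3 and 23). A second listed start of KCNMA1 (chr10:77350762-77351011) had 53.6% and 1 CG dinucleotide. The windows of the other matched genes are not printed. KCNJ16, also higher with MPA, had 3 starts, with 46.4%, 39.2% and 48.8% and with 3, 3 and 6 CG dinucleotides, all under the median. KCNIP1, lower with MPA, had 2, one with 52.0% and 6 CG dinucleotides and the other with 74.0% and 20. Both strands were searched for TGTTCT, 1 arm of the element bound by progesterone and other steroid receptors, and for ACANNNTGT, a looser form of the whole element; a window may hold both. Neither was found in the windows of KCNJ4, KCNMA1, KCNJ8, KCNE3, KCNIP1 or KCNJ16. Of all windows, 12.4% held the first and 4.61% the second. Of 113 windows matched to 75 of the 97 KCN genes, 7 held TGTTCT and 3 held ACANNNTGT. A match is only a description, and its absence says only that these letters are not in the window.

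The remaining 90 KCN genes were not called, and their log2 fold changes lay between -0.47 and 0.52. Most of the 97 were dim. Only 35 of 97 (36.1%) had a mean above all 6 array medians in at least 1 group, beside 12950 of all 19775 genes (65.5%). Among these 35 KCN genes 3 rose and 3 fell (17.1%, beside 4.24% of the 12950, of which 2.53% were called higher and 1.71% lower), and the 29 others had log2 fold changes between -0.47 and 0.21. The 62 dimmer genes included 1 call (1.61%), that of KCNJ16. Of all 19775 genes, 6825 were dim in the same sense. Calls over all genes were 574, of which 549 lay among the 12950 brighter genes. Since the values carry no detection call, a low signal was not read as absence of the channel. At an unadjusted limma p under 0.05 there were 12 of 97 genes (12.4%), beside 11.8% of all genes, and 5 of these 12 were not called, namely KCND1, KCNK5, KCNK12, KCNMB1 and KCNQ3. The MPA and control arrays did not overlap for 19 of 97 genes (13 higher and 6 lower), which is 19.6%, beside 16.9% of all genes (8.96% higher and 7.98% lower).

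**Figure D3:**
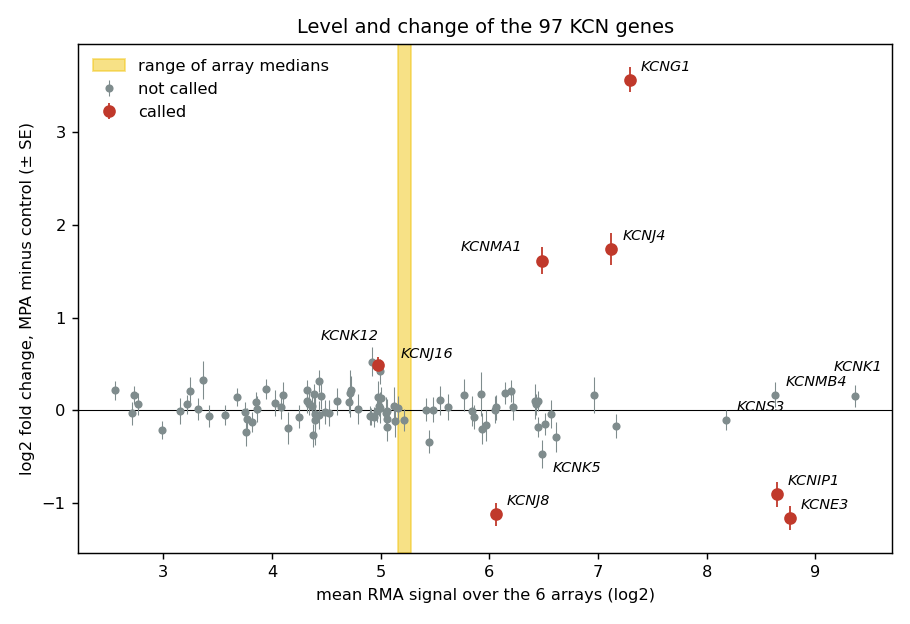
Mean RMA signal over the 6 arrays (log2, horizontal axis) and log2 fold change, MPA minus control (vertical axis, ± SE), of the 97 KCN genes; called genes are red and the band marks the range of array medians. Of the 7 called genes, 6 lie to the right of the band and KCNJ16 to its left. Signals of different probe sets are not on 1 scale of abundance.

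The voltage-gated pore-forming subunits were the largest class, and none of the 25 was called, beside 2.9% of all genes. The smallest limma adjusted p among them was 0.272. Their log2 fold changes ran from -0.34 to 0.42 with a median of -0.01. Only KCNC4, KCNH2, KCNH3, KCNQ1 and KCNQ3 had a mean above all array medians in a group. KCNQ3, a subunit of the M-current of neurons, read 5.14, 5.23 and 5.46 on MPA arrays and 5.44, 5.73 and 5.68 on control arrays. The groups overlapped by a single array each, and the log2 fold change of -0.34 (interval -0.63 to -0.04) did not pass the test (limma adjusted p = 0.385). KCNH2, the channel that repolarises the heart beat, read 6.62, 6.25 and 6.79 on MPA arrays and 6.71, 6.48 and 6.58 on control arrays, with a log2 fold change of -0.04 (limma adjusted p = 0.978). The Shaker-type genes measured (KCNA1, KCNA3, KCNA4, KCNA5, KCNA6, KCNA7 and KCNA10) were under the median on every array.

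None of the 14 two-pore-domain channels, which carry the resting leak of potassium, was called, beside 2.9% of all genes. Of the 14, 7 had a signal above the array medians. KCNK1, a weakly conducting leak channel, read 9.58, 9.50 and 9.27 on MPA arrays and 9.20, 9.39 and 9.29 on control arrays, with a log2 fold change of 0.15 (interval -0.12 to 0.43, limma adjusted p = 0.791). A second probe set of KCNK1 gave 7.80, 7.74 and 7.87 on MPA arrays and 7.43, 7.59 and 7.44 on control arrays. There the groups did not overlap, and the log2 fold change of 0.31 had a limma adjusted p of 0.274. KCNK5, a leak channel that is closed by acid and serves cell volume, read 6.26, 6.01 and 6.47 on MPA arrays, against 6.93, 6.66 and 6.59 on control arrays. All MPA arrays were below all control arrays, and the log2 fold change of -0.47 (interval -0.82 to -0.13) did not pass the test over all probe sets (limma adjusted p = 0.250). KCNK12, a relative that gives little current when expressed alone, was dim, at 5.22, 4.92 and 5.40 on MPA arrays, against 4.88, 4.62 and 4.46 on control arrays. It had the largest log2 fold change of the class, 0.52 (interval 0.16 to 0.89), and a limma adjusted p of 0.222. The other genes of the class above the medians were KCNK3, KCNK6, KCNK9, KCNK16 and KCNK17, with log2 fold changes between -0.20 and 0.21.

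The last 12 symbols were 10 antisense or overlapping transcripts together with KCNQ1DN and KCNRG, and none of them was called. KCNQ1OT1, the long antisense transcript that silences its imprinted neighbours, had a log2 fold change of -0.18 (limma adjusted p = 0.707). The largest changes in this class were those of KCNMB2-AS1 and KCNQ1-AS1, -0.23 and 0.23 (limma adjusted p = 0.750 and 0.548). KCNJ5-AS1, which was above the medians, gave 0.04 (limma adjusted p = 0.977).

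**Figure D4:**
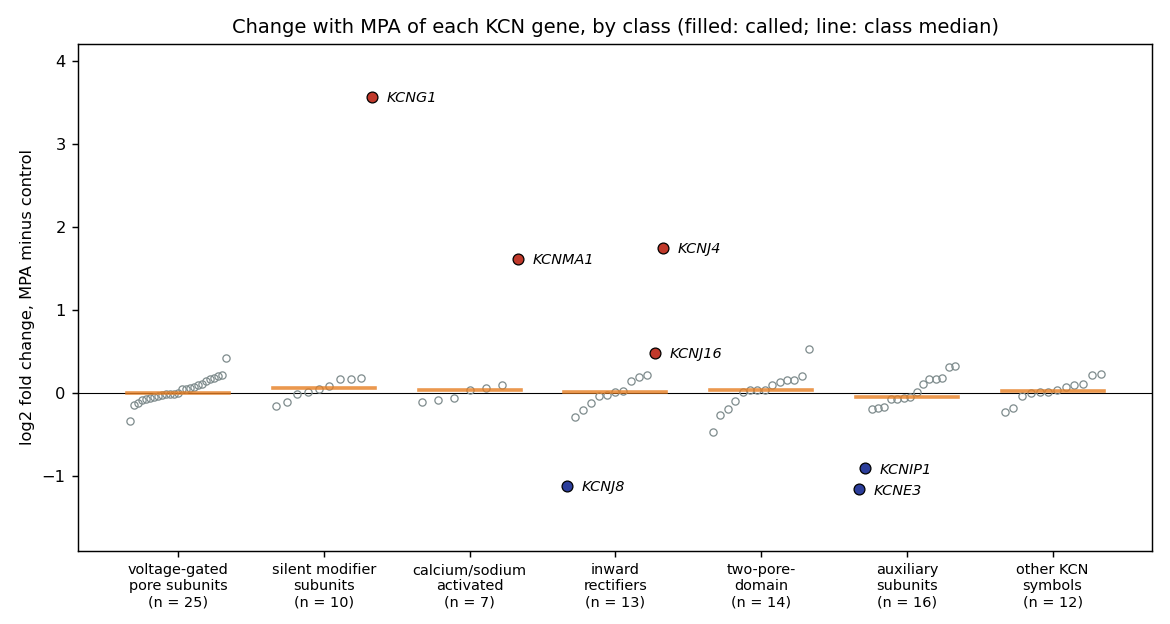
Log2 fold change, MPA minus control (vertical axis), of each of the 97 KCN genes, grouped by class along the horizontal axis; filled points were called and the line is the class median. All 7 class medians lie between -0.05 and 0.06, and calls occur in the silent, calcium- or sodium-activated, inward rectifier and auxiliary classes.

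The arrays within the MPA group were not alike for the uncalled genes. Of the 90 genes not called, 46 had their highest signal of all 6 arrays on MPA 3 and 34 had their lowest on MPA 2. The median deviation from a gene's own mean was 0.14 on MPA 3, -0.10 on MPA 2 and -0.01 on MPA 1, against 0.00, -0.05 and -0.0025 on control arrays 1 to 3. Over all probe sets, too, MPA 3 had the highest array median (5.28) and MPA 2 the lowest (5.16). The same counts were not made over all genes, so the pattern cannot be called particular to KCN genes. MPA 3 was also the array with the low poly-A controls. Without MPA 3, 6 of the 7 calls held, with log2 fold changes of 3.56 for KCNG1, 1.62 for KCNJ4, 1.76 for KCNMA1, -1.14 for KCNE3, -1.14 for KCNJ8 and -1.02 for KCNIP1. KCNJ16 kept its difference at 0.49 with a limma adjusted p of 0.0703.

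**Figure D5:**
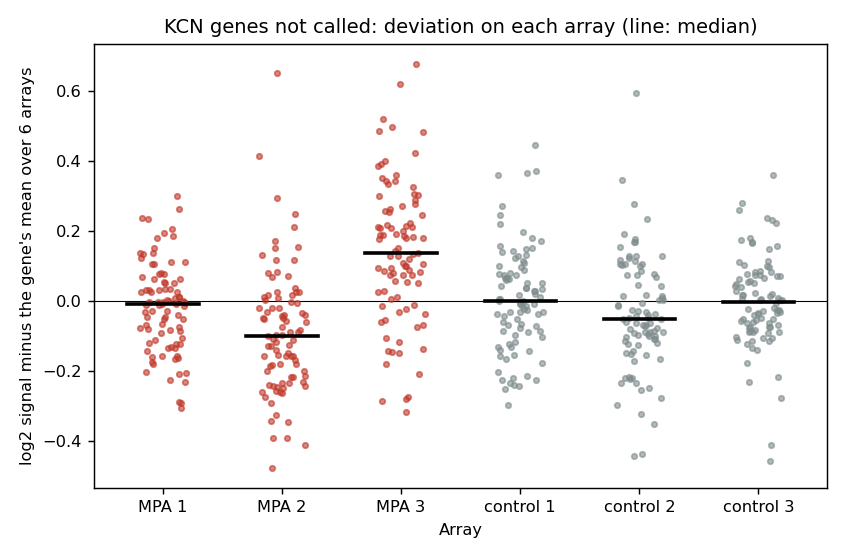
Deviation of the log2 signal from the gene's mean over the 6 arrays (vertical axis) for the 90 KCN genes that were not called, by array (horizontal axis, MPA arrays then control arrays); each point is a gene and the line is the median. MPA 3 has the highest median (0.14) and MPA 2 the lowest (-0.10).

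Other genes that move potassium or work with its channels were described by lists, of which 48 of 56 genes were measured. Of these 48, 1 rose and 1 fell (beside 1.74% of all genes called higher and 1.16% called lower), and the median log2 fold change was 0.03. STK39 encodes a kinase that activates the cotransporter for sodium, potassium and chloride under control of the WNK kinases. It read 8.88, 9.07 and 8.34 on MPA arrays, against 7.49, 7.90 and 7.64 on control arrays, with means of 8.76 ± 0.38 and 7.68 ± 0.21 (SD, n = 3 each). The groups did not overlap, and it was 2.12-fold higher with MPA (log2 fold change 1.08, limma adjusted p = 0.0294). FXYD2, the gamma subunit of the sodium-potassium pump, was read by a probe set of a kind that can match other transcripts, and fell to 7.87, 7.64 and 8.27 on MPA arrays, against 9.44, 8.70 and 8.996 on control arrays. All MPA arrays were lower than all control arrays, and the log2 fold change was -1.12 (limma adjusted p = 0.0405). Each of these calls was lost when any of MPA 1, MPA 2, control 1 and control 3 was left out, with adjusted p up to 0.150 for STK39 and 0.183 for FXYD2.

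By list, none of 8 accessory subunits outside the KCN symbols was called, among them ABCC8, DPP6, DPP10, AMIGO1 and LRRC52. Of 13 pump genes 1 fell, and of 14 cotransporter and kinase genes 1 rose. None of 8 HCN and CNG cation channels was called, and 1 of them was above the array medians in a group. All 5 subunits of the volume-regulated anion channel (LRRC8A to LRRC8E) were above the medians, and none was called. ATP1B1, a beta subunit of the sodium-potassium pump, had a log2 fold change of -0.38 (limma adjusted p = 0.369).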

How the data were processed

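RNA of 3 MPA and 3 control samples was hybridised to Affymetrix U133 Plus arrays. The authors deposited log2 values made by RMA, which corrects background, normalises between arrays and summarises each probe set, so no step was repeated; for the RMA software, no version is given in these sources. Of 54675 probe sets, 62 control probe sets were left out. Symbols came from the platform annotation, updated by gene identifier (41091 probe sets with 1 symbol, 41037 of them matched by identifier, 1801 with several, 11721 with none).

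The groups were compared with limma 3.58.1 in R 4.3.3 (two-sided moderated test by lmFit and eBayes, without covariates); p-values were adjusted by Benjamini-Hochberg across 54613 probe sets, and the script was tested on simulated data. With 3 arrays a group, the smallest exact permutation p is 0.1. The fold minimum of 1.25 and SAM, with delta 0.53, are those of the study's methods; here SAM was an alternative, rewritten from its description with all 20 relabelings. Other alternatives were a block for replicate number, an intensity trend, no fold minimum, a filter on dim probe sets, scaling to housekeeping genes, another quantile normalisation, the mean of a gene's probe sets, and leaving out each array. Named genes were KCNG1, all called genes, those called by a dimmer probe set or whose call differed under an alternative, and per class the pair with the highest signal and the pair with the largest change; partner subunits were added after their values were seen. The members and lists were chosen with earlier results of these data known. Array depth has no read count, and the number of arrays limits precision. Protein sequences were not used here. Figures were drawn with matplotlib 3.10.9.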

Additional observations from a re-analysis of the deposited data

How the results depend on the processing

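Of the 7 KCN calls, 4 higher and 3 lower, all were kept with SAM, without the fold minimum and with the replicate block. With the intensity trend, the filter on dim probe sets, housekeeping scaling, the second quantile normalization and averaging of a gene's probe sets, 3 were higher and 3 lower, KCNJ16 being lost (adjusted p = 0.0906 with the trend, 0.0879 with housekeeping scaling, 0.0628 with the second quantile normalization and 0.288 with averaging; not tested with the filter). Leaving out 1 array at a time gave 3 higher and 2 to 3 lower; KCNIP1 was lost without MPA 1, control 1 or control 3, and KCNJ16 each time. No called gene changed direction. The call of STK39 was also lost with housekeeping scaling (adjusted p = 0.0518), which shifted the median of all probe sets by -0.07 and made 48.4% of all calls higher, against 59.9% without it.

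Over all probe sets, 663 were called higher and 444 lower. The counts were 1208 and 825 with the replicate block, 1313 and 868 with SAM, and 356 and 215 after averaging a gene's probe sets, which tests 19775 genes. Leaving out each array gave 353 to 725 higher and 156 to 465 lower. The cause of these differences was not tested. Whether replicate numbers pair the arrays was checked by the correlation of same-numbered deviations from the group means, which was -0.02, 0.52 and 0.33 for numbers 1, 2 and 3; not every array correlated best with its own number, so the numbers were not used as pairs, and the block changed no call of a KCN gene. Group means no higher than the array medians limit what can be read for 62 of the 97 genes.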
